A study of Mus musculus with 4 samples.

Results

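C/D box small nucleolar RNAs (snoRNAs) and small Cajal body RNAs (scaRNAs) were examined in RNA recovered with FLAG-tagged mutant Dis3l2 from mouse embryonic stem cells. The members were all gene symbols that start with Snord or Scarna in either of the 2 deposited tables, with 1 entry per symbol. This gave 31 of 20793 symbols, 22 C/D box snoRNAs and 9 scaRNAs, and all 31 were taken from the noncoding table. A RefSeq gene table of assembly GRCm38 lists 103 such symbols, and the other ones were not analysed here. The C57BL/6 stem cells, at passages 25 to 30 on gelatin without feeders in LIF and serum, either received FLAG-tagged mutant Dis3l2 by transfection or were mock transfected, and the labels do not name the mutation. Each condition gave 1 input library of RNA selected against ribosomal RNA and 1 library of RNA from an anti-FLAG immunoprecipitation (IP). There were thus 4 libraries with 1 library per group, so differences are between libraries and none was tested across replicates. Where 4 read counts are given in library order, they run from mutant input and mock input to mutant IP and mock IP.

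C/D box snoRNAs are short nucleolar RNAs that pair with ribosomal RNA and guide the 2′-O-methyltransferase fibrillarin to it, while a few of them act in the cleavage of the ribosomal RNA precursor. Most are cut from introns of host genes and end where exonucleases meet the bound proteins, but U8 (Snord118) and U13 (Snord13) are transcribed from promoters of their own. ScaRNAs are related guides that reside in Cajal bodies and modify spliceosomal snRNAs; they carry C/D boxes, H/ACA boxes or both. Dis3l2 is a cytoplasmic exoribonuclease that digests RNA from its 3′ end and prefers tails of uridine. The comparison of mutant IP with mock IP asks which RNAs depend on the tagged protein for their recovery.

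The noncoding table held 2157604 to 3183346 reads per library and the table of mRNAs held 291175 to 2275647. Values were whole reads divided by 1 factor per library, so reads could be recovered exactly. Reads of Dis3l2 itself were 7, 3, 127 and 21 in library order. All 10 markers of embryonic stem cells had reads in at least 1 input, with 132 in the mutant and 176 in the mock input together. The 3 fibroblast markers in the table summed to 16 and 10 input reads, 3 endoderm markers to 2 and 0, 4 trophectoderm markers to 29 and 44, 3 mesoderm markers to 3 and 0 and 3 ectoderm markers to 16 and 16. Gata6, Dab2, Cdx2, T, Mixl1 and Pax6 were at 0 in both inputs. In mutant and mock IP the fibroblast markers summed to 99 and 27 reads, the endoderm ones to 20 and 1, the trophectoderm ones to 100 and 45, the mesoderm ones to 14 and 11 and the ectoderm ones to 63 and 69. The 10 stem cell markers summed to 3632 and 2424 IP reads, and 0 of them passed 4-fold between the IPs. Gata4, Kdr and Pax6 were at least 4-fold higher in the mutant IP, with 20, 14 and 13 reads against 0. Thy1 was also higher, with 26 against 3, and T and Sox1 were lower, with 0 against 11 and 15. Over all features measured between the IPs, 10.6% were at least 4-fold higher and 5.71% lower. The part of these markers in the results below was not tested. Input and IP RNA were prepared in different ways, since only the inputs are described as selected against ribosomal RNA.

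The C/D box snoRNAs were sparse in every library, whereas the scaRNAs were well covered in the inputs and almost absent from the IPs. Of 22 C/D box snoRNAs, 7 had reads in each input and 13 in each IP. Their summed reads were 146, 100, 286 and 115 in library order. Of 9 scaRNAs, 7 had reads in each input and 5 in each IP, with sums of 4685 and 4870 reads in the inputs against 69 and 28 in mutant and mock IP. There were 12 C/D box snoRNAs with reads in an IP and 0 in both inputs, and 1 scaRNA, Scarna9. These 13 had at most 29 reads in any library. Of all 20793 symbols, 17316 had a value of at least 1 in either IP and 11583 in either input. The share of all features with reads in the IPs only or the inputs only was not counted. Reads in an input and 0 in both IPs were found for Scarna3a, Scarna3b, Snord110 and Snord35b. Snord16a and Scarna17 were at 0 in all 4 libraries. In all, 16 members reached 10 reads in a library and are described by name, 8 of each class, and the other 13 had at most 9 reads in any library.

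**Figure D1:**
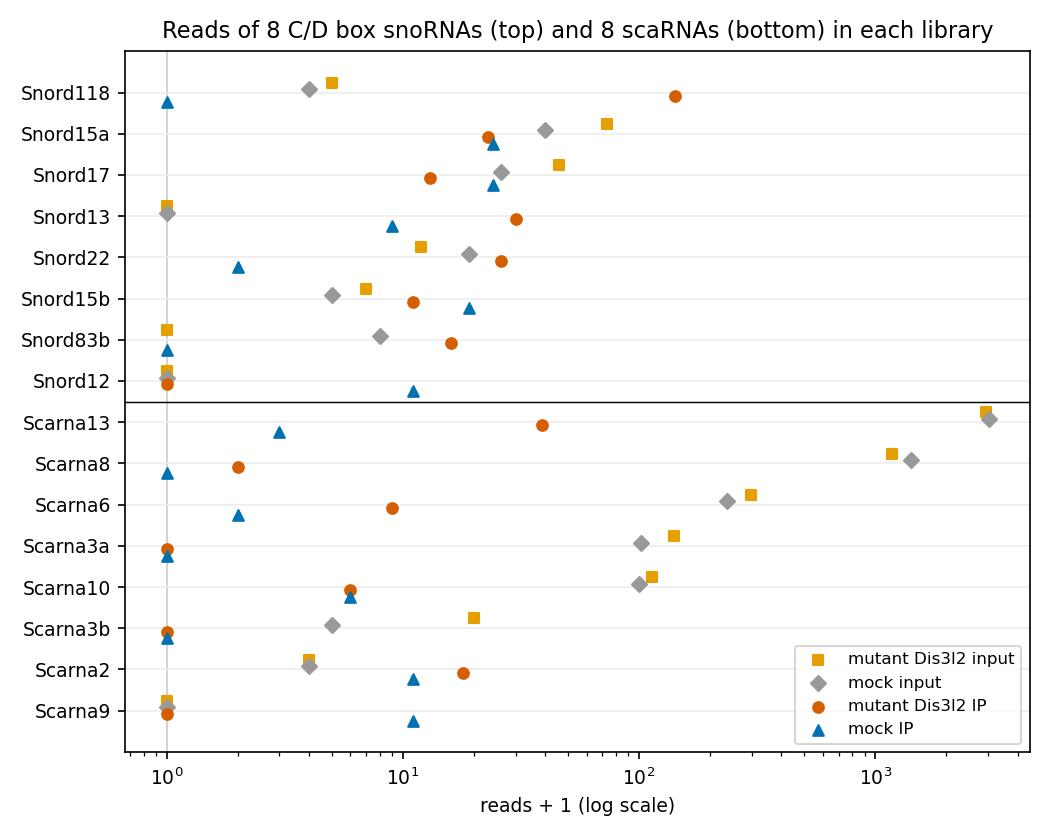
Reads of the 16 members that reached 10 reads in a library, 1 point per library, on a log axis of reads + 1. The scaRNAs with many reads have them in the 2 inputs, and Snord118 stands at 141 mutant IP reads with 0 mock IP reads.

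Set against all reads of the noncoding table, scaRNAs made up 1706 RPM (scaled to the noncoding total of each library) of the mutant input (exact Clopper-Pearson 95% interval 1657 to 1755) and 1778 of the mock input (1729 to 1829). In the IPs they made up 21.7 (16.9 to 27.4) in the mutant and 13.0 (8.62 to 18.8) in the mock. The C/D box snoRNAs stood at 53.2 (44.9 to 62.5) and 36.5 (29.7 to 44.4) in the inputs and at 89.8 (79.7 to 101) and 53.3 (44.0 to 64.0) in the IPs. Without Snord118 the mutant IP value was 45.5 (38.4 to 53.6), within the interval of the mock IP. Intervals here and below cover counting error only, because PCR copies are not independent molecules.

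**Figure D2:**
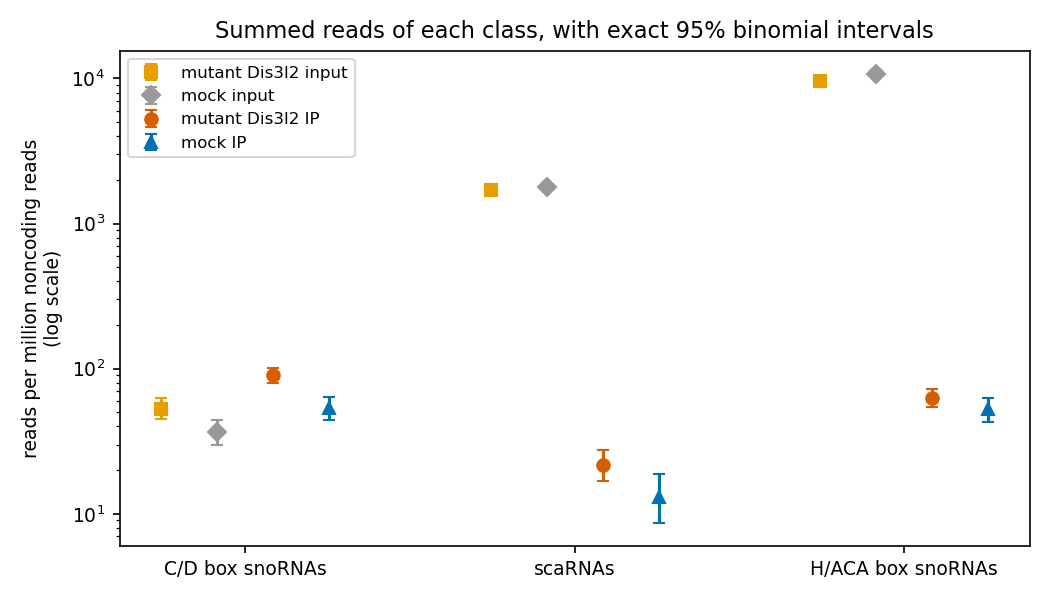
Summed reads of each class in RPM of the noncoding table, on a log axis, with exact 95% binomial intervals for the 4 libraries. ScaRNAs and H/ACA box snoRNAs stand far higher in the inputs than in the IPs, while C/D box snoRNAs lie between 36.5 and 89.8 in all 4 libraries.

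Scarna13 (U93), an H/ACA guide, supplied most of the scaRNA reads in the inputs, 62.8% in the mutant and 61.9% in the mock. It had 2944, 3015, 38 and 2 reads in library order. Scarna8, another H/ACA guide, followed with 1172, 1414, 1 and 0 reads. Both were abundant in the inputs and nearly gone from the mock IP. Scarna6, which carries both kinds of boxes, had 296, 234, 8 and 1 reads. Scarna10 (U85), a guide for the U5 snRNA with both kinds of boxes, had 112, 99, 5 and 5. The H/ACA guides Scarna3a and Scarna3b had 139 and 19 reads in the mutant input and 101 and 4 in the mock input, and 0 in both IPs. All 6 had more reads in each input than in the IP of the same cells, except that the 4 mock input reads of Scarna3b are too few to set it clearly apart from 0.

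Of the C/D guides Scarna2, Scarna9 and Scarna17, those with reads did not share that order. Scarna2 had 3 reads in each input, and 17 and 10 in mutant and mock IP. Scarna9 had 10 mock IP reads and 0 in the other libraries. Grouped by box type, which was done after the values were seen, the 6 scaRNAs with H/ACA boxes summed to 9549 input reads and 60 IP reads, and the 3 with C/D boxes only summed to 6 and 37. Their RefSeq gene models also differ in length, 71 to 275 bases against 42 to 62, and the part of length in this split was not tested. Across the 16 members with input reads, RefSeq length and summed input reads had a Spearman correlation of 0.59, given as a description, since all points share the same 2 libraries. The 15 members with no input read had a median length of 68 bases, against 121 for those with reads.

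Per 100 bases of the RefSeq model, which can be compared for the 18 members that also have a RefSeq entry in the mRNA table, the level in the mutant input was highest for Scarna13 at 648 and Scarna8 at 548. Scarna3a followed at 98.9, Scarna6 at 66.1, Snord15a at 27.0, Snord22 at 16.3, Scarna3b at 11.6 and Snord17 at 11.3, in deposited values per 100 bases. In the mock input Scarna8, at 476, and Scarna13, at 474, were level. The most abundant C/D box snoRNA thus lay well below the 4 leading scaRNAs per length in both inputs.

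Of the scaRNAs, 3 overlap annotated microRNA hairpins, and these are the stretches of member sequence that the reference tables used here hold. They are shown because the hairpins have rows of their own in the deposited tables, so that they read a part of Scarna13, Scarna3a and Scarna3b separately. The hairpin of Mir3069 lies within Scarna13 (GRCm38.p6, chr12:105031077-105031141, minus strand). Mir1843b lies within Scarna3a (chr1:159340358-159340423, plus strand), and Mir1843a shares 64 of its 65 bases with Scarna3b (chr12:80391613-80391677, minus strand). Sequences are from RefSeq, 5′ to 3′, and capitals mark the mature microRNAs.
Mir3069: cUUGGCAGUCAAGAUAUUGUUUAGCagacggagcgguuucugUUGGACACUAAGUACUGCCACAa
Mir1843b: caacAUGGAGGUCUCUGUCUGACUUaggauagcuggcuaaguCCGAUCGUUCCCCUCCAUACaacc
Mir1843a: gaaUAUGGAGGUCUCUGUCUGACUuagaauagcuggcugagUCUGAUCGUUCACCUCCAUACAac
The hairpins in Scarna3a and Scarna3b were identical at 59 of 66 aligned positions (89.4%), so reads of these 2 scaRNAs may be shared between copies, and how the authors treated such reads is not stated. Their mature 5p arms, with the seed (bases 2 to 8) in capitals, begin 1 base apart and have different seeds.
mmu-miR-1843b-5p: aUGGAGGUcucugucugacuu
mmu-miR-1843a-5p: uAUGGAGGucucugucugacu

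The hairpin rows followed the scaRNAs that contain them. In the RefSeq entries Mir3069 had 561, 511, 4 and 1 reads in library order. This came to 863 and 786 reads per 100 bases in the inputs, against 1167 and 1185 for the whole of Scarna13. Mir1843b had 144 and 95 input reads and 0 in both IPs, or 218 and 144 reads per 100 bases against 178 and 119 for Scarna3a. In the noncoding table these hairpins had fewer input reads, with 285, 264, 2 and 0 for Mir3069 and 71, 41, 0 and 0 for Mir1843b. The values per 100 bases above hold for the RefSeq entries only. Mir1843a had 7 reads in the mutant input of the noncoding table and 0 in the other 3 libraries. The tables do not give read lengths, and whether the same reads were counted on both rows is not given, so these values are no separate evidence of mature microRNAs.

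Among the C/D box snoRNAs with input reads, Snord15a (U15A) led. It guides methylation of 28S ribosomal RNA and lies inside the ribosomal protein gene Rps3, as does its copy Snord15b. Snord15a had 72, 39, 22 and 23 reads in library order. Snord15b had 6, 4, 10 and 18. The IPs did not separate mutant from mock for Snord15a, and both copies had reads in all 4 libraries. Snord17, inside the sorting nexin gene Snx5, had 45, 25, 12 and 23 reads.

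Snord22 (U22), which is needed for 18S ribosomal RNA processing and lies inside the noncoding host gene Snhg1, had 11, 18, 25 and 1 reads in library order. Its RefSeq entry in the mRNA table held 37, 55, 90 and 6. Among the C/D box snoRNAs, Snord22 had the largest gap between the tables, up to 65 reads. Of the 18 members in both tables, 5 had equal reads in all 4 libraries and 11 differed by at most 5 reads in any library. Scarna13 differed by up to 265 reads and Scarna3a by up to 71. Snord83b had 15 mutant IP reads in the noncoding table and 6 in its RefSeq entry.

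Mutant IP against mock IP separated U8 most clearly. Snord118, the U8 snoRNA needed for the maturation of 5.8S and 28S ribosomal RNA, had 4, 3, 141 and 0 reads in library order. Against the floor of 3 reads that a count of 0 allows (a value of 1.2 in the mock IP), Snord118 was at least 43.5-fold higher in the mutant IP. Bounds of this kind, here and below, take the other count as exact, so they are less strict than interval limits. It alone supplied 49.3% of the C/D box reads of that library. Snord13, the U13 snoRNA that guides acetylation of 18S ribosomal RNA, had 29 and 8 reads in mutant and mock IP and 0 in both inputs. Its ratio of 3.36 (exact conditional 95% interval 1.5 to 8.5) was below 4-fold. Of the 2 snoRNAs with promoters of their own, U8 thus passed 4-fold, while the interval of U13, all on the higher side, spans 4-fold.

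Among the intron-encoded C/D box snoRNAs, Snord22 was 23.1-fold higher in the mutant IP (3.79 to 950), an interval that rests on 1 mock read. With the RefSeq entry, 90 reads against 6, the ratio was 13.9 (6.14 to 38.8). Snord83b, inside the ribosomal protein gene Rpl3, had 15 mutant IP reads and 0 mock IP reads, at least 4.63-fold higher, but its RefSeq entry held 6 and 0, at least 1.85-fold. Snord43, also inside Rpl3, had 9 mutant IP reads and 0 elsewhere, at least 2.78-fold. The ratios of Snord15a, 0.886 (0.471 to 1.66), Snord15b, 0.514 (0.212 to 1.18), and Snord17, 0.483 (0.219 to 1.01), had intervals that include 1. A higher level in the mutant IP was therefore not detectable for these 3 at this depth.

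Of the scaRNAs, Scarna13 was 17.6-fold higher in the mutant IP (4.55 to 151), resting on 2 mock reads, and 18.5-fold with its RefSeq entry. Scarna6 had a ratio of 7.41 with an interval from 0.993 to 329. Scarna2 stood at 1.57 (0.681 to 3.85) and Scarna10 at 0.926 (0.213 to 4.02). Summed without Scarna13, the scaRNAs had a ratio of 1.10 (0.634 to 1.94), and the C/D box snoRNAs without Snord118 one of 1.17 (0.908 to 1.5). With them the sums gave 2.28 (1.45 to 3.68) and 2.30 (1.85 to 2.88). Without 1 RNA in each class, the interval of the class ratio thus included 1.

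**Figure D3:**
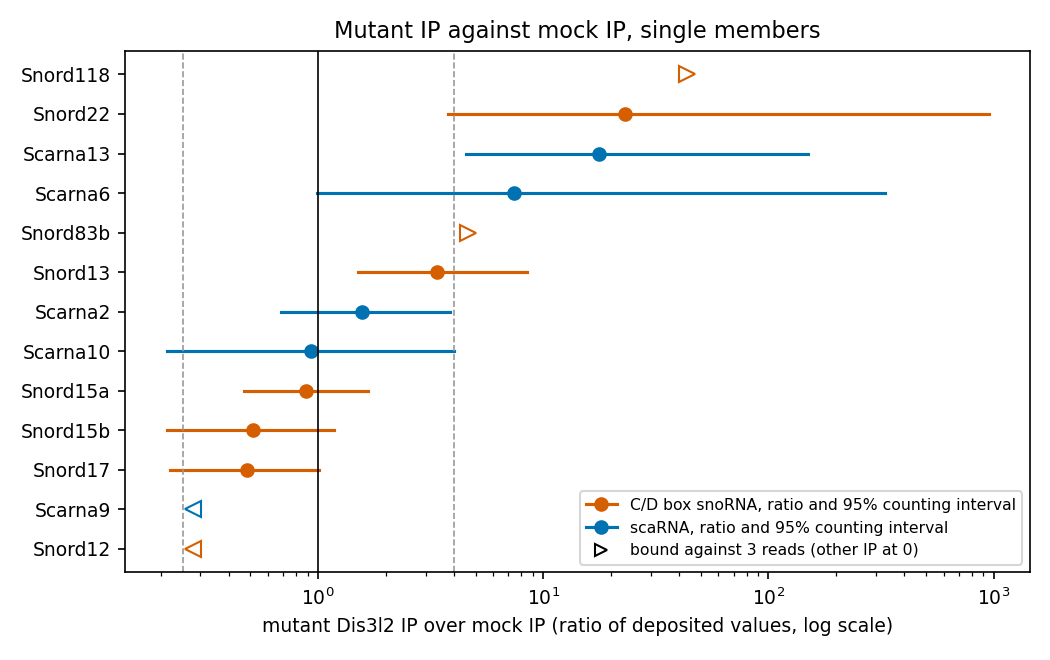
Ratio of mutant IP to mock IP for the named members with more than 3 reads in an IP, on a log axis. Bars are exact conditional 95% counting intervals. Open triangles are bounds where the other IP had 0 reads, with the nonzero count taken as exact. Dashed lines mark 4-fold. Snord118 lies at 43.5 or more, and the intervals of Snord15a, Snord15b and Snord17 cross 1.

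In log2 ratios with a pseudocount of 1, which understate the change of low features, 21 members had a value of at least 1 in either IP. Of these, 5 were at least 4-fold higher (23.8%) and 4 lower (19.0%). Over all 17316 features so measured, 10.6% were higher and 5.71% lower, and the median was 0.40 against 0.55 for the members. In the noncoding table alone, which holds all the members, 13.5% of 3506 features were higher and 5.99% lower, with a median of 0.47. Centring on the median feature shifted every log2 ratio between the IPs by 0.33 and turned the shares over all features to 7.07% higher and 8.32% lower. The counts of members given here are not centred, so they are not to be set against these centred shares. The 5 higher were Snord118, Snord22, Snord83b, Snord43 and Scarna13. The 4 lower, Snord12, Snord19, Snord8 and Scarna9, had 8 to 10 mock IP reads and 0 in the other 3 libraries, with bounds of at least 3.6-fold for Snord12 and Scarna9 and 2.88-fold for Snord19 and Snord8. Only Snord118 exceeded 100 reads over both IPs, where 3.28% of 5334 features were higher and 0.0750% lower. For 10 to 99 reads the shares were 15.9% and 7.69% of 9363 features, and 3 and 2 of the 13 members there. At this depth a feature with 10 reads in 1 IP and 0 in the other passes the threshold in either direction.

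**Figure D4:**
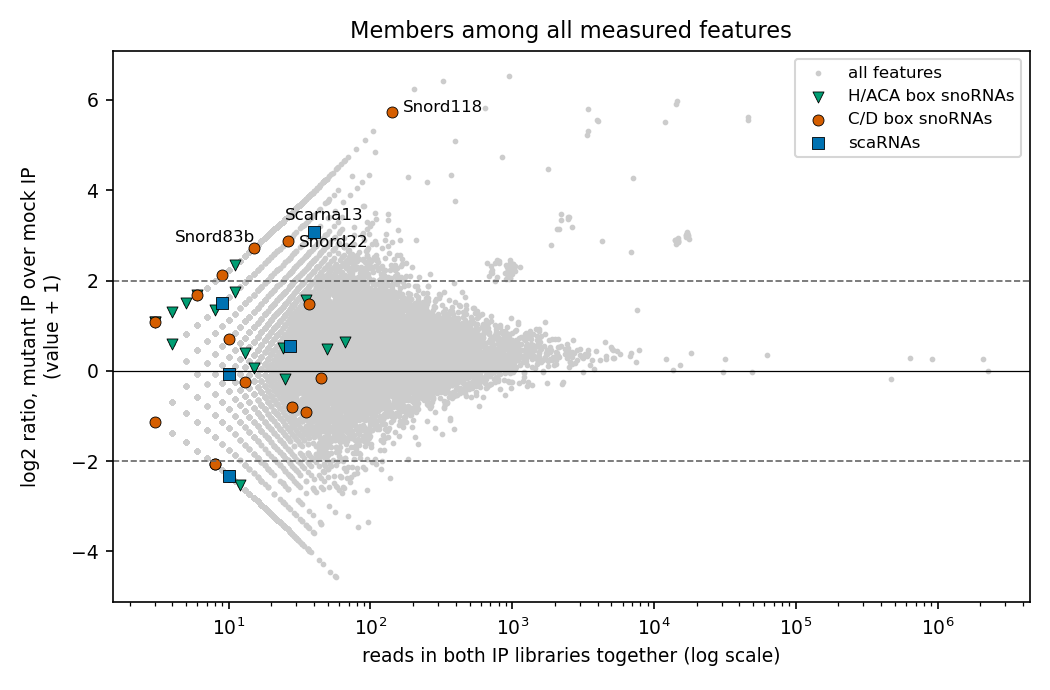
Log2 ratio of mutant IP to mock IP (value + 1) against the reads in both IPs together, log axis, for all features (grey) and the snoRNA classes; dashed lines mark 4-fold. Snord118 lies at 5.73, while most members have under 100 reads, where grey points spread past 4-fold in both directions.

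A further comparison set each IP against the input of the same cells. In the mutant, 21 members were measured, with 4 at least 4-fold higher and 8 lower, against 54.5% and 3.67% of 16577 features. In the mock, 22 were measured, with 5 higher and 6 lower, against 54% and 3.34% of 15834 features. In the noncoding table alone 25.7% of features were higher and 10.3% lower for mutant cells, 23.5% and 10.7% for mock cells. The 4 higher in the mutant were Snord118, Snord13, Snord43 and Snord83b, and the 5 higher in the mock were Snord12, Snord13, Snord19, Snord8 and Scarna9, so that Snord13 was on both lists. Of the 8 lower in the mutant, 6 were scaRNAs, and of the 6 lower in the mock, 5. The log2 medians of the scaRNAs were -5.38 for mutant cells and -4.57 for mock cells. Those of the C/D box snoRNAs were 1.38 and 1.14, below the medians of all features, 2.23 and 2.15. They lay above the medians of the noncoding table alone, 0.90 and 0.79.

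For Scarna13 the IP value was 0.00861 times the input in the mutant (0.00608 to 0.0118) and 0.000663 times in the mock (8.03e-05 to 0.00240). Scarna13 was therefore far below its input in both IPs, and the 2 intervals do not overlap. Scarna8 stood at 0.000569 times the mutant input (1.44e-05 to 0.00318) and at least 471-fold below the mock input. Scarna6 was at 0.0180 (0.00771 to 0.0360) and 0.00427 (0.000108 to 0.0240) times its input, and Scarna10 at 0.0298 (0.00948 to 0.0715) and 0.0505 (0.0160 to 0.122). Scarna3a was at least 69.5-fold below its input in the mutant and 33.7-fold in the mock. For these 5 scaRNAs the IP was below the input both with and without the tagged protein.

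Snord118 had the highest measured ratio of mutant IP to mutant input among the members, 23.5 times (8.98 to 87.4). In the mock its 3 input reads and 0 IP reads are both within the floor, so no ratio is given. Snord13, with 0 reads in both inputs, was at least 6.44-fold above the floor of its input in the mutant and 2.67-fold in the mock. Snord22 stood at 1.52 times the mutant input (0.719 to 3.41) and 0.0556 times the mock input (0.00133 to 0.352). Snord15a went the other way, with 0.204 times in the mutant (0.120 to 0.332) and 0.590 in the mock (0.336 to 1.01), and Snord17 had 0.178 (0.0856 to 0.342) and 0.920 (0.499 to 1.69). Snord15b was at 1.11 (0.366 to 3.72) and 4.50 (1.48 to 18.3).

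**Figure D5:**
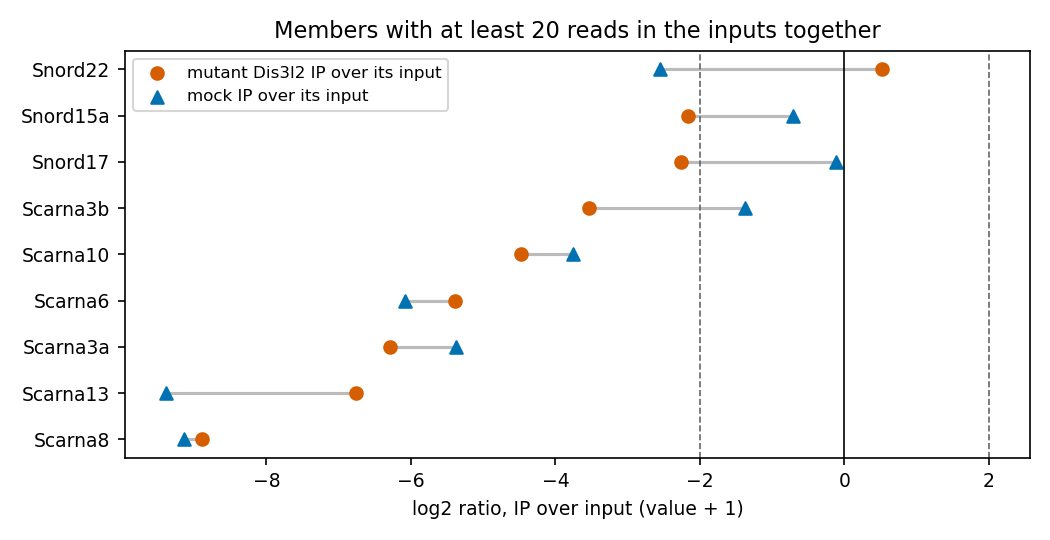
Log2 ratio of IP to input (value + 1) in the mutant and in the mock for the 9 members with at least 20 reads in the inputs together; dashed lines mark 4-fold. The 6 scaRNAs lie between -1.38 and -9.39 in both conditions, Snord22 is above 0 in the mutant only, and Snord15a and Snord17 are lower in the mutant than in the mock.

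Between the inputs, the 6 members with over 100 reads were higher in the mutant as deposited. Of 16 members measured, 1 was at least 4-fold higher and 0 lower, against 8.94% and 4.06% of 11583 features, and the median log2 ratio was 0.69, against 0.50 for all features. Centring shifted these ratios by 0.43 and gave 4.28% of all features higher and 10.4% lower, with 0 members higher and 1 lower. Scarna3b was the 1 past 4-fold, with 19 reads against 4, a ratio of 6.60 (2.19 to 26.7), or 9.03 (3.13 to 35.6) with its RefSeq entry. Its near copy Scarna3a gave 1.91 (1.47 to 2.49). Snord15a and Snord17 had ratios of 2.56 (1.71 to 3.89) and 2.5 (1.5 to 4.25), and Scarna6, Scarna10, Scarna13 and Scarna8 stood at 1.76 (1.48 to 2.09), 1.57 (1.19 to 2.08), 1.36 (1.29 to 1.43) and 1.15 (1.06 to 1.24). Snord118 had 4 reads against 3, with an interval of 0.313 to 12.6, so a difference between the inputs was not detectable at this depth. Scaling to RPM over both tables, not the noncoding table alone, turned Scarna13 to a log2 ratio of -0.05 and Scarna8 to -0.28. Centring on the median turned Scarna8 to -0.22, so the direction of these scaRNAs depends on the scaling.

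The specific IP enrichment, the ratio of IP to input for mutant cells over that for mock cells, combines the comparisons above and shares their libraries. Of 27 members measured, 5 were at least 4-fold higher and 6 lower, against 13.6% and 10.2% of 18482 features, with a median log2 value of -0.24 for the members and 0.11 for all features. Snord118 had a log2 value of 5.18 and Snord83b one of 4.64, or 3.27 with its RefSeq entry. Both rest on 0 mock IP reads and depend on the pseudocount, with 3.30 and 1.72 at a pseudocount of 5. The ratio of Snord22 was 27.3 (3.26 to 1180), or 14.9 (5.64 to 45.1) with its RefSeq entry, and that of Scarna13 was 13.0 (3.35 to 111). On the other side, Snord17 had a ratio of 0.193 (0.0748 to 0.490) and Snord15a one of 0.345 (0.161 to 0.742), with intervals below 1. Snord15b, at 0.247 (0.0417 to 1.37), did not exclude 1. The other 5 past 4-fold lower were Snord12, Snord19, Snord8, Scarna9 and Scarna3b, each with 0 reads in at least 1 IP.

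The H/ACA box snoRNAs, 38 symbols starting with Snora, were lower in the IPs than in the inputs, as the H/ACA-bearing scaRNAs were. Their summed IP value was 0.00505 times the input in the mutant (0.00437 to 0.00580) and 0.00384 times in the mock (0.00316 to 0.00462). The scaRNAs with H/ACA boxes gave 0.00740 (0.00552 to 0.00973) and 0.00164 (0.000709 to 0.00324), whereas the C/D box snoRNAs gave 1.31 (1.07 to 1.61) and 1.15 (0.872 to 1.52). Without Snord118 the C/D box snoRNAs gave 0.681 (0.536 to 0.864) in the mutant, below 1, and 1.19 (0.897 to 1.57) in the mock. At least 4-fold lower values in mutant IP than input were found for 31 of 35 H/ACA box snoRNAs and 2 of 14 C/D box snoRNAs, against 3.67% of all features and 10.3% of the noncoding table alone. For the mock the counts were 27 of 33 and 1 of 14, against 3.34% and 10.7%. Sums are weighted to the abundant members, and with 1 library per group no test of the classes was run.

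By position in the GRCm38 gene table, 27 of the 31 members lie inside another gene, 8 of them in a ribosomal protein gene. Snord118, Snord13, Snord89 and Scarna2 lie inside none. The values of the host transcripts are set beside those of the members here. Rps3, the host of Snord15a and Snord15b, had 10, 60, 196 and 188 reads in library order. Its IP value was 13.1 times the input in the mutant (6.96 to 27.7), where Snord15a was at 0.204. Snhg1, the host of Snord22, had 0 reads in 3 libraries and 16 in the mock IP, the library in which Snord22 had 1. Rpl3, the host of Snord83b and Snord43, gave 1.01 between the IPs (0.889 to 1.14). Between the IPs, Rps3 at 0.965 (0.786 to 1.19) and Snord15a both had intervals that include 1. Snhg10, the host of Scarna13, had 18 mutant IP reads and 0 in the other 3 libraries, the same order between the IPs as Scarna13. Haus6, the host of Scarna8, had a ratio of 2.24 between the IPs (1.78 to 2.83). The use of strand is not given, and reads of a snoRNA and of an unspliced host intron cannot be told apart in these tables.

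The messenger RNAs of proteins that bind or trim these guides mostly stayed within 4-fold between the 2 IPs. None of 4 C/D box core proteins, 8 assembly factors, 6 H/ACA proteins or 7 Cajal body proteins passed 4-fold between the IPs, with medians of 0.68, 0.02, 0.41 and 0.37 on the log2 scale against 0.40 over all features. Fbl, the fibrillarin gene, had 111 and 50 IP reads in mutant and mock, a 2.06-fold ratio (1.46 to 2.93). Coil, the Cajal body marker coilin, gave 3.56 (2.12 to 6.24). Lower in the mutant IP were Gemin2, of the Cajal body list, at 0.295 (0.106 to 0.714), and Znhit6, an assembly factor, at 0.520 (0.326 to 0.815). Of 14 measured genes for U8 and U3 maturation and rRNA processing, 0 were higher and 1 lower, Imp4, at 0.185 (0.0630 to 0.452). Of 18 genes for 3′ end trimming, tailing and decay of small RNAs, 2 were higher and 0 lower. These shares, 7.14% lower in the former list and 11.1% higher in the latter, were near those over all features, 5.71% and 10.6%. The 2 higher were Dis3l2 at 5.6 (3.51 to 9.36) and Zcchc11 (Tut4), a terminal uridylyltransferase, at 8.45 (5.03 to 15.2). Dis3l2 is also the transfected gene, and reads of the introduced copy and of the cells' own are not told apart here. Parn, a deadenylase that trims snoRNA and scaRNA ends, gave 2.66 (1.63 to 4.48). Exosc10, the nuclear exosome ribonuclease that trims snoRNA precursors, gave 2.60 (1.77 to 3.90). Others of this list went the other way, with Dis3 at 0.716 (0.522 to 0.978) and Exosc3 at 0.386 (0.106 to 1.18). The median of the list was 0.13 on the log2 scale, below that over all features.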

How the data were processed

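Per the submitters' processing notes, Bowtie and the mm9 build were used. Versions, counting, strand and the handling of multiply aligned reads were not given in the sources used here. As signal, the values deposited by the authors were whole reads (100% of values within 0.02 reads) over a factor per library, 1.8 and 2.5 for mutant and mock input, 2.7 and 2.5 for mutant and mock IP. The meaning of the factors is not stated, and no further scaling was applied. A count test was not run, because each group has 1 library. Ratios used log2(value + 1) for features with a value of at least 1 in any library compared, and 4-fold was the threshold. Intervals were exact, conditional binomial for ratios and conditional odds ratios for the specific enrichment (SciPy 1.17.1, Python 3.11.15). Bounds set the nonzero count, taken as exact, against a floor of 3 reads. Calls and intervals were tested on simulated counts with counting error only, and only for features with many reads. That test does not bear on calls of members with few reads. Of the mRNA names, 26 date-like ones were restored through their accessions. Every member with at least 10 reads or a value of at least 5 in a library was named, with U8 and U13; Snord43, Snord19 and Snord8, which passed 4-fold with fewer reads, and the members at 0 or inside no gene were named after their values were seen. Members and lists were chosen with earlier results of these data known. Alternatives were pseudocounts of 0.5 and 5, no filter or a minimum value of 5, median centring, RPM over both tables, the noncoding table alone and, added after seeing the data, the RefSeq entry of members in both tables.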

Additional observations from a re-analysis of the deposited data

Results flagged for a closer look

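Snord22 in its RefSeq entry had IP over input ratios on opposite sides of 1 in the 2 conditions, 1.62 in the mutant (95% interval 1.09 to 2.45) and 0.109 in the mock (0.0384 to 0.253). With 1 library per condition the difference was not tested beyond counting error, and its cause was not tested. In the noncoding table's entry, with fewer reads, the mutant interval included 1 (0.719 to 3.41).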

How the results depend on the processing

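No paired analysis was possible because each group has 1 library and the labels carry no replicate numbers. Counts below are higher, then lower, and RPM here is over both tables. Between the IPs (5 and 4), the counts were 1 and 0 with a pseudocount of 5 and 3 and 0 in RPM, and 0 were lower with a minimum value of 5, which left 9 members. For mutant IP over input (4 and 8), 7 were higher with a pseudocount of 0.5, and 2 in RPM, and a pseudocount of 5 gave 1 and 5. For mock IP over input (5 and 6), 0 were higher with a pseudocount of 5, a minimum value of 5, centring or RPM, and the median of -0.41 became -3.76 with the minimum value of 5. Between the inputs (1 and 0), a pseudocount of 0.5 gave 3 and 2, a pseudocount of 5 and RPM 0 higher, and centring 0 and 1; the median of 0.69 became 0.00 with no filter. For the specific enrichment (5 and 6), a pseudocount of 5 gave 1 and 0, RPM 0 lower, and the minimum value of 5 gave 2 lower. The cause was not tested, beyond the smaller number of members under the stricter filter. Of 35 values of named members past 4-fold, 13 stayed past it with a pseudocount of 5 and 23 in RPM. None changed sign where it was recomputed (the minimum value of 5 kept 28 of them), but several settings could not change it. A pseudocount cannot turn the sign of a ratio of 2 libraries. The filters and the noncoding table alone leave the members' values as they were. Depth limits these values, since 15 of 31 members had under 10 reads in every library.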
